A study of Mus musculus with 9 samples.

Results

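Respiratory complex I genes of splenic regulatory T cells (Treg cells) were followed in bulk RNA sequencing of mice with and without a floxed Esrrg gene. The genes were the rows of the count table whose symbol begins with Nduf followed by a, b, c, s or v. This rule gave 45 of 26683 genes, of which 36 encode complex I subunits, 7 are assembly factors of the Ndufaf series, and 2 (Ndufa4 and its relative Ndufa4l2) carry the name although Ndufa4 is now assigned to cytochrome c oxidase, complex IV. Ndufa4l2 had 0 counts in every library, so 44 genes entered the test. The 4 KO libraries came from EsrrgNf/f.Foxp3YFP-Cre mice and the 5 WT libraries from B6N.Foxp3YFP-Cre mice. All were labelled as female and 2 to 3 months old, and each library held sorted CD4-positive, Foxp3-YFP-positive spleen cells of 1 mouse. Every mouse, WT included, therefore carried the Foxp3-driven Cre with its YFP reporter, and only the KO mice are labelled with the floxed gene. Cre from this allele acts in cells that express Foxp3, the transcription factor that defines Treg cells. A difference of colony or substrain between the 2 strains cannot be told apart from genotype.

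Complex I, NADH:ubiquinone oxidoreductase, takes electrons from NADH, passes them through a flavin and a chain of iron-sulphur clusters to ubiquinone, and pumps protons across the inner mitochondrial membrane. Its matrix arm holds the redox centres and its membrane arm the proton channels. Core subunits do the chemistry, accessory subunits surround and stabilise them, and assembly factors help to build the enzyme without staying in it. The product of Esrrg is an orphan nuclear receptor, estrogen-related receptor gamma, which acts on mitochondrial genes in heart and muscle, and Treg cells are known for their reliance on mitochondrial respiration.

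Total counts ran from 15269014 to 17425634 per library. Esrrg had 0 counts in all 9 libraries, where 3 counts would equal 0.172 to 0.196 CPM (count divided by the scaled library size, times 1000000). The labels could thus not be checked by the deleted gene. All 10 Treg markers examined were detected, and Foxp3 stood at 535 to 601 CPM in KO and 533 to 598 CPM in WT. The library labelled KO 4 held 27 counts of Xist, the RNA of the inactive X chromosome, against 27355 to 35693 in the other libraries, which goes against its label as female. KO 1 and KO 4 were the highest libraries for markers of plasma cells, B cells, neutrophils and macrophages, which did not hold for dendritic, CD8 T, NK or erythroid markers. Immunoglobulin genes took 0.296%, 0.121%, 0.158% and 0.798% of the counts in KO 1 to KO 4, against 0.101% to 0.151% in WT. That share was higher in KO by 0.224 percentage points on average (exact permutation p = 0.0238, two-sided, 0.0476 adjusted over 2 measures), with KO 2 inside the WT range. Markers of plasma cells (8 in the table, none at 0) summed to 137 to 668 CPM in KO and 119 to 177 CPM in WT. Markers of neutrophils (10, none at 0) summed to 1.86 to 138 CPM in KO and 2.00 to 7.76 CPM in WT, and those of macrophages (9, none at 0) to 27.7 to 144 CPM in KO and 25.9 to 79.7 CPM in WT. The part of these cells in the complex I values was not tested, and values without KO 1 and KO 4 are given beside the counts below.

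The start regions of a few complex I genes are shown because the receptors and factors known to govern respiratory genes bind short motifs there. Windows of 300 bases, from 250 before to 50 after the annotated start, were taken from RefSeq (GRCm38.p6) and found for 38 of the 43 tested subunits and assembly factors. Both strands were searched for TNAAGGTCA (the extended estrogen-related receptor motif), the palindromic nuclear respiratory factor 1 motif and CCGGAAG (the ETS factors, with GABPA). Capitals mark matches, and every sequence runs from 5′ to 3′ on the strand of the gene. Ndufb4 is the single complex I gene here with the receptor motif. Ndufa5 and Ndufs6 are matrix arm genes with a nuclear respiratory factor 1 match, and Ndufaf4 is an assembly factor with one. Ndufa13, which had the smallest p of the 44 tested genes, had no match in its window. The Ndufa13 and Ndufa5 windows lie inside the genes as annotated in GENCODE, which reach 69902558 and 24528013 on the minus strand. Those outer starts were not searched.
Ndufb4, chr16:37654319-37654618, minus strand: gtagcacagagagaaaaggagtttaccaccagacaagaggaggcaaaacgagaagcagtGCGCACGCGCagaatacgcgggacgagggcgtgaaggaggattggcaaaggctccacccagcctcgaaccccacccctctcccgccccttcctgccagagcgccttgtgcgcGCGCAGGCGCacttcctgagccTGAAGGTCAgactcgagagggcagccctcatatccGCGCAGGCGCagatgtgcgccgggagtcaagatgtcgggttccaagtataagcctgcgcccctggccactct
Ndufa5, chr6:24527641-24527940, minus strand: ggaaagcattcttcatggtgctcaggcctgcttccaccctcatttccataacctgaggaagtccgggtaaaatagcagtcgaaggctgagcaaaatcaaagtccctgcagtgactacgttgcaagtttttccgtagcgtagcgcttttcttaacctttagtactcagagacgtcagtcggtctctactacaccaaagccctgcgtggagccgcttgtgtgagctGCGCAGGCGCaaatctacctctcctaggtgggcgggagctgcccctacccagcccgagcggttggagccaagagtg
Ndufs6, chr13:73328433-73328732, minus strand: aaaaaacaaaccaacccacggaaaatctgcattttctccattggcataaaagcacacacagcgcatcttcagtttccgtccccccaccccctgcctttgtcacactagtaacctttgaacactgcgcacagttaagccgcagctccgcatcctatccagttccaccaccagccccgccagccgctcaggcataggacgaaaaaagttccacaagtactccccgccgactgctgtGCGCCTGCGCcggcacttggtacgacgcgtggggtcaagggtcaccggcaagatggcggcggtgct
Ndufaf4, chr4:24897833-24898132, plus strand: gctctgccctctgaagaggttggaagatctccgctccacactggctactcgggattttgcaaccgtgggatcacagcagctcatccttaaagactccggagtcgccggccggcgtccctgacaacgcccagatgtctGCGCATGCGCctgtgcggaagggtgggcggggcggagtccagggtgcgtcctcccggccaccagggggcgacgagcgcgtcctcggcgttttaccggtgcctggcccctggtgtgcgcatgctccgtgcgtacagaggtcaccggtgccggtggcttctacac
Ndufa13, chr8:69901971-69902270, minus strand: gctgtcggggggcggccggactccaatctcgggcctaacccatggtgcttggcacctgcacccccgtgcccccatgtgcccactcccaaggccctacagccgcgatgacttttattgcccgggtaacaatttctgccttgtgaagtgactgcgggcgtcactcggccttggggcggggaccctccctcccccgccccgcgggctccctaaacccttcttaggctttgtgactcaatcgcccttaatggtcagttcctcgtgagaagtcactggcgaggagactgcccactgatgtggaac

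In Ndufb4 the receptor motif tgaaggtca begins 57 bases before the start and lies between nuclear respiratory factor 1 matches that begin 79 and 22 bases before it, with a further match at 191 bases. Ndufa5 has a second annotated start, whose window holds the same match 190 bases before it. No 2 of these overlap. The receptor motif was found in 1 of 38 complex I windows (2.63%), against 0.863% of 9391 tested genes and 1.43% of 27025 genes with a window. The nuclear respiratory factor 1 motif was found in 9 of 38 (23.7%), against 12.0% of tested genes and 5.19% of all genes. The ETS motif was found in 5 of 38 (13.2%), against 21.4% of tested genes and 9.93% of all genes. These are letters in a window, and no binding was measured.

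None of the 44 tested genes passed an adjusted p of 0.05 between KO and WT, although nearly all of them were slightly higher in KO (edgeR quasi-likelihood test with Benjamini-Hochberg adjustment over 12738 genes). By this rule 3.28% of all tested genes were called, 1.40% higher and 1.88% lower in KO. These 418 calls over all genes became 97 (without WT 3) to 697 (without WT 2) when single libraries were left out, and 919 with DESeq2. The log2 fold change (KO over WT) was positive for 42 of the 44 genes (95.5%), against 51.5% of all tested genes, but its median over the 36 subunits was only 0.066, a ratio of 1.05, against 0.0052 over all tested genes. Over the 7 assembly factors the median was 0.047, with all 7 positive. Leaving out single libraries moved it from 0.026 (without KO 4) to 0.14 (without KO 2), on either side of the subunit median, with 0.12 without KO 3, 0.12 without WT 4, 0.088 without WT 2 and 0.085 without KO 1. At an unadjusted p under 0.05 there were 8 genes, all higher in KO. That is 18.2% of the 44, against 21.6% of all tested genes in either direction and 11.1% in the higher direction. Without KO 1 and KO 4 there was 1 such gene, while calls over all genes at the adjusted threshold fell from 418 to 118. The share of all genes at an unadjusted p under 0.05 was not taken in that fit. DESeq2 and limma-voom also called 0 of the 44 genes. The 95% intervals of the 44 fold changes, not adjusted for their number, lay between ratios of 0.807 and 1.34. The genes are measured in the same libraries and are not independent of each other, so the share with a positive sign was not tested.

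The groups overlapped once the genes were summed up per library, as the plot of subunit level by library shows. The median deviation of the 36 subunits from their WT mean, on the log2 CPM scale, was 0.099 in KO 1, 0.060 in KO 2, 0.061 in KO 3 and 0.085 in KO 4. It was -0.030 in WT 1, 0.080 in WT 2, -0.021 in WT 3, 0.014 in WT 4 and -0.028 in WT 5. WT 2 thus lay above KO 2 and KO 3. For the assembly factors the deviations were 0.16, 0.025, 0.062 and 0.13 in KO 1 to KO 4, against 0.0019, 0.023, -0.0086, 0.035 and -0.029 in WT 1 to WT 5, with KO 2 inside the WT range. Of the 43 subunits and assembly factors, 13 had their highest value in KO 1 and 14 their lowest in WT 1. Without KO 1 and KO 4, 26 of 36 subunits were positive with a median of 0.063, and the assembly factor median was 0.025. With WT 1 left out as well, 24 of 36 were positive with a median of 0.052.

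The relation of gene level to transcript length also differed between the libraries. Complex I transcripts are short, with a median of 940 bases for the subunits and 1451 for the assembly factors, against 2838 for all tested genes, taking the main coding transcript of each gene. Spearman's rho between the deviation of a gene in a library and its length, over 12539 genes, was -0.13, -0.019, -0.065 and -0.096 in KO 1 to KO 4. It was 0.053, -0.11, 0.024, -0.028 and 0.095 in WT 1 to WT 5. WT 2, the control library with high complex I levels, was also the control library in which short transcripts were most raised. KO 2 and WT 4 did not follow that order, with rho of -0.019 and -0.028 but subunit deviations of 0.060 and 0.014. WT 2 against KO 4, and WT 5 against WT 1, were also out of order, by smaller margins in the subunit deviation. The mean rho was lower in KO by 0.085, with overlapping groups (permutation p = 0.111 over all 126 splits, two-sided, and 0.111 adjusted over the 2 library measures tested). Deviations were taken from the mean of the WT libraries themselves, so KO and WT values are not on an equal footing, and this p is a rough guide. The median deviation of the 1244 other genes with main transcripts under 1000 bases was 0.048, 0.0070, 0.0068 and 0.019 in KO 1 to KO 4. In WT 1 to WT 5 it was -0.00075, 0.031, -0.026, 0.018 and -0.032. The part of transcript length in the complex I values was not tested. After the trend of fold change with length was removed, the subunit median was 0.043 with 30 of 36 positive, and the assembly factor median was 0.027 with 7 of 7 positive. With the union of all exons as the length, the medians were 0.039 for the subunits (31 of 36 positive) and 0.014 for the assembly factors (6 of 7 positive). In bulk RNA, fewer cells of a type and less RNA per cell cannot be told apart.

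**Figure D1:**
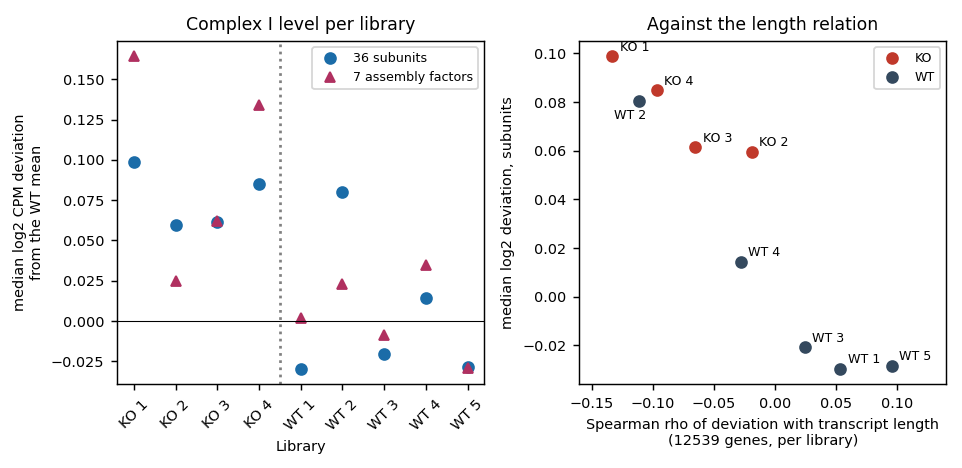
Left, the median log2 CPM deviation from the WT mean of the 36 subunits (circles) and 7 assembly factors (triangles) in the 4 KO and 5 WT libraries. Right, the subunit median of each library against Spearman's rho of gene deviation with transcript length, where WT 2 lies among the KO libraries.

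The 7 nuclear core subunits, which carry the flavin, the iron-sulphur clusters and the quinone site, all had fold changes close to 1. Their median log2 fold change was 0.061, and their values ran from -0.026 to 0.085. At an unadjusted p under 0.05 there were 0 of 7, against 21.6% of all tested genes. Ndufv2, an iron-sulphur subunit next to the flavin, was at 69.5, 68.4, 70.7 and 70.6 CPM in KO and at 65.8, 71.1, 61.4, 66.3 and 64.5 CPM in WT. WT 2 was the highest library, and the log2 fold change was 0.085 ± 0.045 (SE, edgeR adjusted p = 0.291).

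The only genes of the 44 with a negative log2 fold change were also core subunits, named here after their values were seen. Ndufs1, which holds several of the clusters, averaged 91.9 ± 1.12 CPM in KO and 92.5 ± 3.94 CPM in WT (SD, n = 4 and 5), with a log2 fold change of -0.0093 and a 95% interval of -0.095 to 0.076. Ndufs7, which carries the last cluster before ubiquinone, averaged 42.7 ± 1.65 CPM in KO and 43.5 ± 1.99 CPM in WT, with a log2 fold change of -0.026 and an interval of -0.13 to 0.081. Their edgeR adjusted p were 0.919 and 0.796. A change of 1.15-fold in either direction lay outside the intervals of all 7 core genes, whose ratios ran from 0.912 to 1.14.

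The 9 accessory subunits of the matrix arm had a higher median than the core and the membrane arm accessory subunits, with no test of that difference. All 9 were positive with a median of 0.095. Of the 9, 4 passed an unadjusted p under 0.05 (Ndufa12, Ndufa5, Ndufs6 and Ndufa9), with 0 past the adjusted threshold. That is 44.4% of the 9, against 21.6% of all tested genes in either direction and 11.1% in the higher direction. Without KO 1 and KO 4, 1 of all 44 genes was at such a p, with the share of all tested genes not taken in that fit. Ndufa12, a relative of the assembly factor Ndufaf2 that takes its place late in assembly, had the largest fold change of the 44 genes. It was at 14.99, 13.0, 14.2 and 15.3 CPM in KO 1 to KO 4, against 11.1, 12.7, 12.4, 12.4 and 11.7 CPM in WT 1 to WT 5. Every KO library lay above every WT library, by a narrow margin between KO 2 and WT 2. The log2 fold change was 0.25 ± 0.080 (SE, edgeR adjusted p = 0.102), and it was 0.14 without WT 1, KO 1 and KO 4. Its level is uncertain, since 26.2% of the 50-base windows of its transcript also occur in the annotated pseudogene Gm15920.

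Ndufa5, an accessory subunit beside the quinone-binding core, was at 20.7, 19.5, 18.6 and 20.2 CPM in KO and at 17.9, 18.6, 16.6, 17.2 and 15.3 CPM in WT. KO 3 and WT 2 met at 18.6 CPM, and the log2 fold change was 0.20 ± 0.072 (SE, edgeR adjusted p = 0.129). Ndufa6, which anchors the mitochondrial acyl carrier protein to the matrix arm and is the most abundant of these 9 genes, was at 69.0, 67.3, 65.8 and 63.8 CPM in KO and at 61.6, 63.2, 63.9, 67.9 and 57.9 CPM in WT. WT 3 and WT 4 lay above KO 4, and its log2 fold change came to 0.080 ± 0.049 (SE, edgeR adjusted p = 0.364), or 0.048 without WT 5. Ndufs6 averaged 26.1 ± 2.32 CPM in KO and 22.7 ± 2.46 CPM in WT, and Ndufa9 averaged 58.5 ± 2.85 CPM in KO and 53.4 ± 3.57 CPM in WT. Both are given for their unadjusted p, after their values were seen.

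All 19 accessory subunits of the membrane arm were positive, from 0.0024 for Ndufa11 to 0.17 for Ndufa13, with a median of 0.065. Of these, 3 passed an unadjusted p under 0.05 (Ndufa13, Ndufa1 and Ndufa10) and 0 passed the adjusted threshold. The 3 are 15.8% of the 19, against 21.6% of all tested genes in either direction and 11.1% in the higher direction. Ndufa13, also known as GRIM-19 (mm10, chromosome 8, 69894180 to 69902558, minus strand), had the smallest p of the 44 genes. It was at 87.9, 82.5, 92.5 and 81.5 CPM in KO 1 to KO 4, against 70.9, 80.1, 74.1, 79.3 and 78.1 CPM in WT 1 to WT 5. All KO libraries lay above all WT libraries, and the means were 86.1 ± 5.12 CPM in KO (SD, n = 4) and 76.5 ± 3.89 CPM in WT (n = 5). The log2 fold change was 0.17 ± 0.051 (SE, edgeR adjusted p = 0.0849). Of its transcript windows, 28.5% are shared with the overlapping kinase gene Tssk6 or with Gm12389, so some of its reads may be theirs.

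Ndufa1, a small X-linked subunit needed for assembly of the membrane arm, was at 32.6, 30.8, 31.6 and 30.5 CPM in KO and at 26.2, 28.2, 26.3, 29.5 and 30.7 CPM in WT. WT 5 lay inside the KO range, and the log2 fold change was 0.16 ± 0.059 (SE, edgeR adjusted p = 0.154). Ndufa10, a subunit with a kinase-like fold, was named for its separate groups after its values were seen. It averaged 75.7 ± 1.195 CPM in KO and 71.0 ± 2.09 CPM in WT (SD, n = 4 and 5), with an edgeR adjusted p of 0.174. Ndufa12, Ndufa13 and Ndufa10 were the 3 of 44 genes (6.82%) whose groups did not overlap, against 9.07% of all tested genes in either direction and 4.15% in the higher direction.

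Ndufab1, the mitochondrial acyl carrier protein, sits in both arms and also serves fatty acid synthesis. It was at 17.3, 22.4, 18.6 and 20.0 CPM in KO 1 to KO 4, against 14.7, 19.6, 21.1, 19.5 and 22.9 CPM in WT 1 to WT 5. The KO range lay inside the WT range, whose lowest library was WT 1, and the 95% interval of its log2 fold change was -0.25 to 0.26 (edgeR adjusted p = 0.993).

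**Figure D2:**
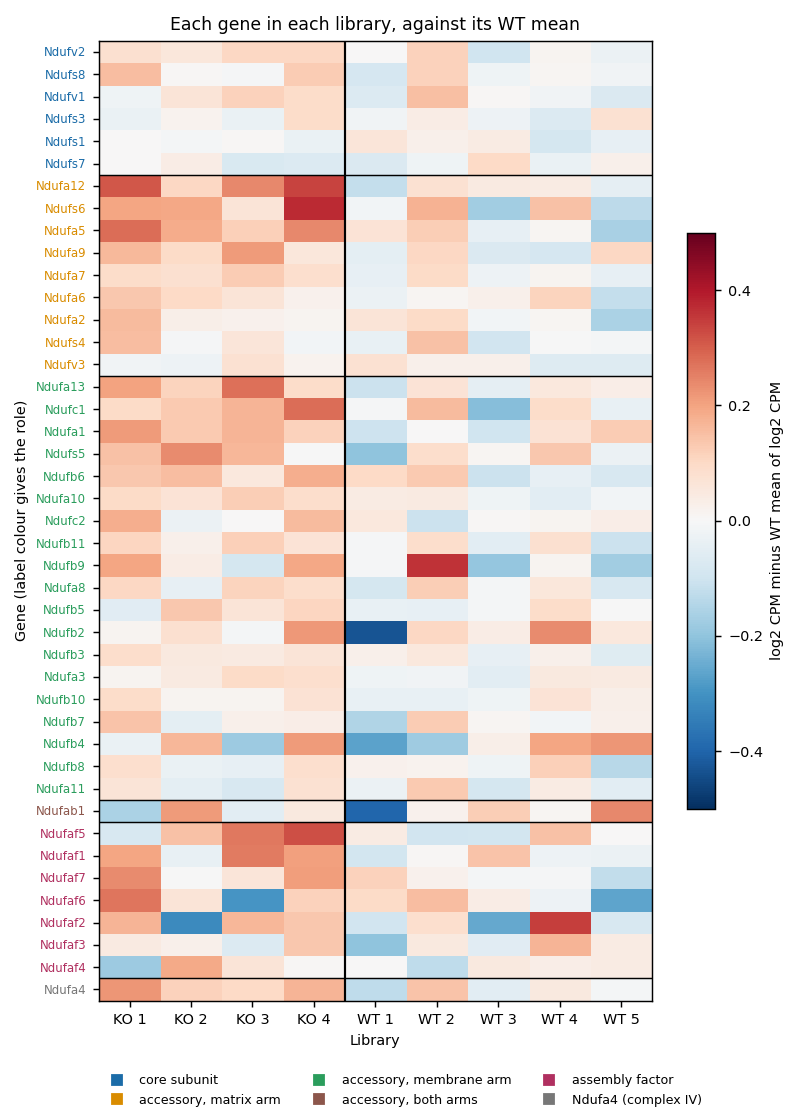
The values of 43 of the 44 tested genes (rows, grouped by role) in each of the 4 KO and 5 WT libraries (columns), coloured by log2 CPM minus the WT mean of the gene, on a scale cut at 0.5 in each direction. KO 1 and KO 4 are warm in most rows (35 and 39 of 43 subunits and assembly factors above the WT mean), and so is WT 2 (35 of 43).

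**Figure D3:**
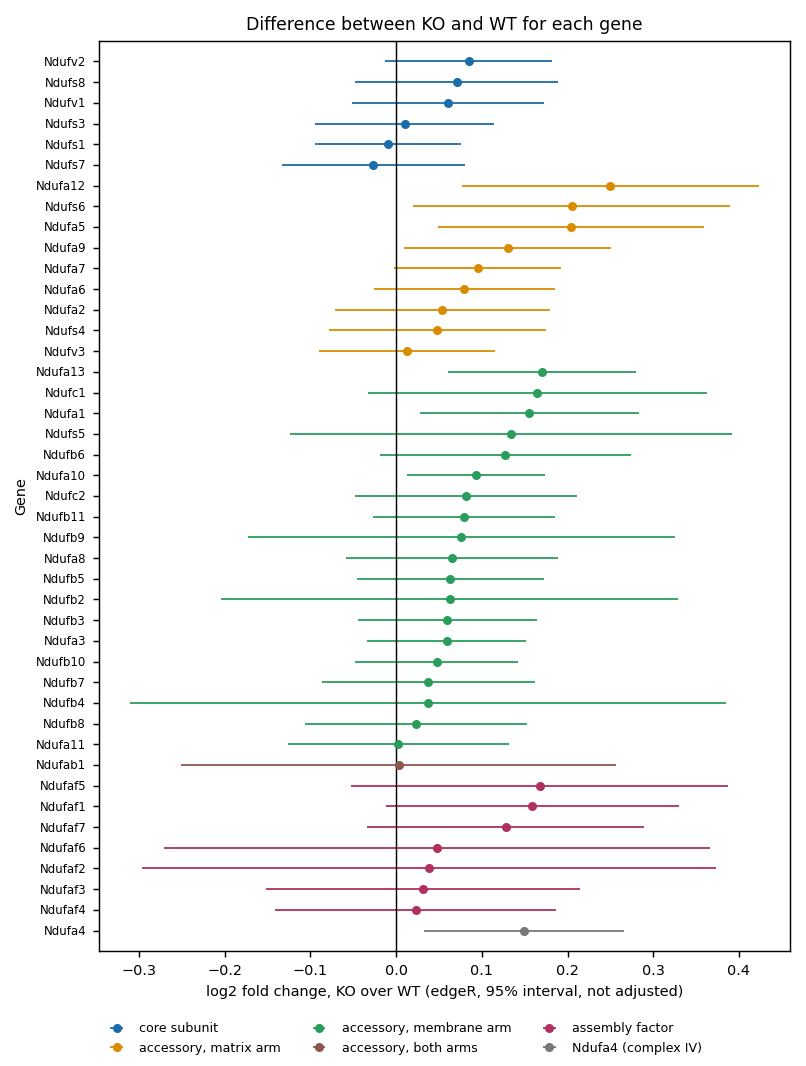
Log2 fold change of KO over WT for 43 of the 44 tested genes, each with its unadjusted 95% interval, by role. All but Ndufs1 and Ndufs7 lie right of 0, and 8 intervals leave 0 out.

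The 7 assembly factors of the Ndufaf series had fold changes of 0.023 to 0.17 on the log2 scale. Of them, 0 of 7 passed an unadjusted p under 0.05, against 21.6% of all tested genes. They were measured with less precision than the subunits, with a median SE of 0.085 against 0.056, at lower counts. Ndufaf1, part of the complex that builds the membrane arm, was at 17.9, 15.2, 18.6 and 17.97 CPM in KO 1 to KO 4, against 14.6, 15.6, 17.2, 15.3 and 15.3 CPM in WT 1 to WT 5. KO 2 lay inside the WT range, and the log2 fold change was 0.16 ± 0.079 (SE, edgeR adjusted p = 0.262). Ndufaf7, a methyltransferase, was at 19.7, 16.7, 17.4 and 19.3 CPM in KO and at 18.1, 17.0, 16.6, 16.6 and 15.3 CPM in WT. KO 1 and KO 4 alone lay above WT 1, and the log2 fold change was 0.13 ± 0.075 (SE, edgeR adjusted p = 0.339). Without KO 1 and KO 4 it was 0.025 for Ndufaf7 and 0.12 for Ndufaf4, and without WT 1 as well 0.052 for Ndufaf7 and 0.089 for Ndufaf1. Ndufaf4, which works on the quinone-binding part with Ndufaf3, was the most abundant by CPM, at 18.8, 24.2, 22.2 and 21.3 CPM in KO and at 21.3, 19.5, 22.0, 21.8 and 21.9 CPM in WT. The KO range reached past the WT range at both ends, and its log2 fold change came to 0.023 ± 0.076 (SE, edgeR adjusted p = 0.896).

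The balance of assembly factors to subunits differed between the groups by less than the spread between libraries. The assembly factors' summed CPM was 5.62%, 5.71%, 5.80% and 6.03% of the summed CPM of the subunits in KO 1 to KO 4, against 5.74%, 5.40%, 5.84%, 5.96% and 5.71% in WT 1 to WT 5. The means were 5.79% ± 0.178 in KO and 5.73% ± 0.208 in WT (SD, n = 4 and 5), closer together than the libraries of either group. The subunits summed to 1608 ± 20.2 CPM in KO and 1530 ± 44.5 CPM in WT, and the assembly factors to 93.1 ± 2.93 CPM in KO and 87.6 ± 2.43 CPM in WT.

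Levels of different genes were compared as RPKM, which is CPM divided by the length of the main coding transcript in kilobases. The median level was 42.7 RPKM over the 36 subunits and 8.63 RPKM over the 7 assembly factors, a ratio of 4.95. The level of 31 of 36 subunits was above that of the highest assembly factor, Ndufaf1, at 11.3 RPKM. The 5 others were Ndufb2, Ndufb4, Ndufab1, Ndufs5 and Ndufc1. With the union of all annotated exons as the length, 28 of 36 were above. The core subunits were all at 34.7 RPKM or above, while the accessory ones spread from 2.30 RPKM for Ndufb2 to 109 RPKM for Ndufa6. With the union of exons, the lowest core subunit, Ndufs1, was at 11.4 RPKM and the highest assembly factor at 10.9 RPKM. The accessory subunits then ran from 1.79 RPKM for Ndufb2 to 77.1 RPKM for Ndufa2. The low values of Ndufb4 (3.67 RPKM) and Ndufs5 (7.38 RPKM) are uncertain, since 37.0% and 31.1% of their transcript windows also occur in other annotated genes. The level of the core subunit Ndufs3 (43.0 RPKM) is uncertain in the same way, with 39.7% of its windows shared. The long annotated transcripts of Ndufb2 (4371 bases) and Ndufab1 (3479 bases) enter these values as the divisor.

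**Figure D4:**
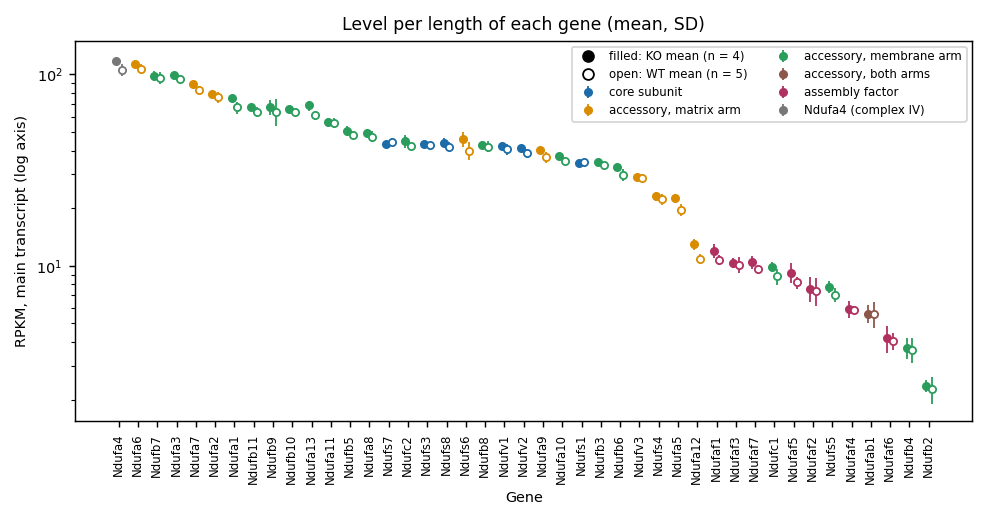
Level per length (RPKM, log axis) of 43 of the 44 tested genes in order of their mean, with KO means filled and WT means open, and bars for the SD (n = 4 and 5). The assembly factors lie together at the low end, from 4.10 to 11.3 RPKM.

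Ndufa4, the complex IV subunit of the old complex I series, was at 74.9, 69.8, 68.9 and 72.5 CPM in KO 1 to KO 4, against 59.0, 71.1, 62.1, 66.6 and 63.9 CPM in WT 1 to WT 5. WT 2 lay inside the KO range, and the log2 fold change was 0.15 ± 0.054 (SE, edgeR adjusted p = 0.140), and it was 0.070 without WT 1, KO 1 and KO 4.

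The median Pearson r of log2 CPM across the 9 libraries was 0.35 over 630 pairs of subunits, and 0.18 after the group means were removed. Over 21 pairs of assembly factors it was 0.12, and -0.026 after the group means were removed. Between subunits and assembly factors it was 0.25, and 0.094 after that step. Over all pairs of tested genes it was -0.0013, and -0.0011 after that step. These values describe 9 shared libraries of like depth. The part of the length relation given above in these correlations was not tested. With the group means left in, the lowest median r to the subunits belonged to Ndufs7 (-0.25), Ndufaf4 (-0.19) and Ndufs1 (-0.16). Ndufs7 and Ndufs1 are also the genes with a negative fold change. Ndufab1 (-0.077), Ndufb4 (-0.0071) and Ndufv3 (-0.0027) were below 0 as well. Ndufa7 (0.62) and Ndufb3 (0.60) followed the subunits most closely.

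The other genes of the pathway did not pass either. Of the mitochondrially encoded core subunits 5 were tested, and 0 passed the adjusted threshold or an unadjusted p under 0.05, with a median log2 fold change of 0.011. The gene mt-Nd3 is listed at 0 in every library. mt-Nd1 averaged 1694 ± 123 CPM in KO and 1782 ± 345 CPM in WT (SD, n = 4 and 5, edgeR adjusted p = 0.787), and mt-Nd2 averaged 1291 ± 149 CPM in KO and 1270 ± 228 CPM in WT (adjusted p = 0.938). WT 1 was the highest library for both, and without WT 1, KO 1 and KO 4 the log2 fold change was 0.27 for mt-Nd2 (edgeR adjusted p = 0.0194) and 0.20 for mt-Nd4 (edgeR adjusted p = 0.0292). Of 9 assembly factors with other names, counting 1810043H04Rik, the older symbol of Ndufaf8, 0 passed, and 6 were positive with a median of 0.035. The smallest p among them belonged to Timmdc1 (0.15, edgeR adjusted p = 0.273) and Tmem126b (0.14, adjusted p = 0.402), which work with Ndufaf1 on the membrane arm.

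Of the receptors, coactivators and transcription factors that act on respiratory genes, 7 of 10 were tested and 0 passed, with 2 positive and a median log2 fold change of -0.036. Nrf1, the factor whose motif is marked above, averaged 70.7 ± 1.58 CPM in KO and 75.1 ± 4.08 CPM in WT (SD, n = 4 and 5), which is -0.088 on the log2 scale (edgeR adjusted p = 0.279). Gabpb1, a partner of the ETS factor GABPA, averaged 62.6 ± 2.24 CPM in KO and 60.3 ± 2.30 CPM in WT (edgeR adjusted p = 0.499).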

How the data were processed

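Total RNA of sorted Treg cells was made into stranded TruSeq libraries, 1 per mouse, per the labels' protocols. Raw gene counts were deposited as a single table with symbols as rows. STAR 2.7, DESeq2 and mm10 appear in the submitters' processing notes, where no role is stated. How reads were counted, and on which strand, was not given in the sources used here. Libraries were grouped by title, 4 KO and 5 WT, and each column matched 1 title. The test was that of edgeR 4.0.16 under R 4.3.3 (quasi-likelihood, trended dispersion, robust, TMM scaling, default expression filter), with Benjamini-Hochberg adjustment over 12738 genes and a threshold of 0.05. This test was checked on simulated data. CPM used TMM-scaled library sizes, and log2 CPM a prior count of 2. Floors of 3 counts cover counting error only. Of 26683 symbols, 24788 were placed by name in GENCODE M21 (mm10) and 613 through a RefSeq synonym. Main transcripts were coding ones of best APPRIS rank, a length chosen after seeing the data in place of the union of exons, whose values are given beside it. The length trend was a lowess fit with a span of 0.3. Genes printed with the value of every library were, in each role, the 2 with the smallest p and the one with the highest mean CPM. Promoters of Ndufa2, Ndufaf6, Ndufb9 and Ndufs1 were not used here. The values of 1 core subunit are not reported here, though it enters the counts and medians. Alternatives were other scalings, filters and tools (limma 3.58.1, DESeq2 1.42.0), replicate blocks and left-out libraries. The gene set, lists and alternatives were chosen with earlier results of these data known.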

Additional observations from a re-analysis of the deposited data

Results flagged for a closer look

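In groups of 4 or 5 libraries, 92 sets of values were examined for a library far from the others of its group, of which chance flags about 1 in 20, and 5 such values were found. Ndufa2, a small matrix arm subunit, stood at 48.3 CPM in KO 1, against 43.7 to 44.2 CPM in the other KO libraries. Ndufa8, a membrane arm subunit, stood at 39.6 CPM in KO 2, against 43.3 to 44.0 CPM in the other KO libraries. The assembly factor Ndufaf2 stood at 3.98 CPM in KO 2, against 5.46 to 5.59 CPM in the other KO libraries. Ndufaf4 stood at 19.5 CPM in WT 2, against 21.3 to 22.0 CPM in the other WT libraries. Ndufb5, a membrane arm subunit, stood at 55.6 CPM in WT 4, against 50.7 to 52.2 CPM in the other WT libraries.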

How the results depend on the processing

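In all 20 other fits, 0 of the complex I genes tested passed the adjusted threshold in either direction, and the smallest adjusted p of the 12 genes chosen for values by library was 0.0509. All 44 were tested except under the filter of a mean CPM of at least 5, which left out Ndufb4 and Ndufaf6. The median log2 fold change of the subunits stayed between 0.039 and 0.091 over 24 alternatives, within 1 SD (0.037) of the libraries, and 24 to 34 of the up to 36 tested subunits were positive. The assembly factor median ranged from 0.026 to 0.14 as single libraries were left out (0.14 without KO 2, 0.12 without KO 3 and 0.12 without WT 4). Of the 44 genes, 8 were at an unadjusted p under 0.05, against 4 with a block by title number, 1 without KO 1 and KO 4, 1 without WT 1 as well, and 5 to 14 without single libraries. The share of all genes at such a p was not taken in those fits. The count over all genes past the adjusted threshold, 418, was 919 with DESeq2, 118 without KO 1 and KO 4, 250 without WT 1 as well, and 97 to 697 without single libraries. Complex I genes with other names numbered 2 past the threshold without WT 1, KO 1 and KO 4, and 0 otherwise. Values near 0 changed sign. Ndufab1 was at -0.00023 with a mean CPM of at least 5, -0.0017 with upper-quartile scaling and -0.020 without WT 1, KO 1 and KO 4, and ranged from -0.084 to 0.063 without single libraries. Ndufaf4 ranged from -0.036 to 0.085, mt-Nd1 from -0.13 to 0.052, mt-Nd2 from -0.037 to 0.14 and mt-Nd4 from -0.030 to 0.10 without single libraries. mt-Nd1 was at 0.0057 without KO 1 and KO 4, and at 0.13 without WT 1 as well. The trend with main transcript length, and the subunit median without genes that share over 10% of their windows (0.065), were chosen after seeing the data, as were the counts of positive genes and of unadjusted p. The cause of these changes was not tested.

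A replicate block by title number left 26 of all genes past the threshold, and one by library number 443. In both fits 0 of the 44 complex I genes passed, and the subunit median was 0.064 and 0.091. Under the block by library number Ndufaf4 was at -0.012 and mt-Nd4 at -0.0081, and under the title block mt-Nd2 was at -0.0044. Same-numbered libraries correlated at -0.067 to 0.10 by title number and -0.26 to 0.099 by library number, and 0 of 4 KO libraries correlated best with its own number, so the numbers were not taken to pair mice. At the depth of these libraries the intervals of single genes did not reach a ratio below 0.807 or above 1.34.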

Other observations

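Some single values stood out by size, chosen after they were seen. Ndufb9, a membrane arm subunit, varied more among the WT libraries than between the groups, with 57.1 CPM in WT 2 and 38.9 CPM in WT 3, and averaged 47.4 ± 4.40 CPM in KO and 44.96 ± 7.34 CPM in WT (SD, n = 4 and 5). Of its transcript windows, 23.4% are shared with Gm49356, a gene model that overlaps it on the same strand. WT 1 held the lowest values of Ndufb2 (7.25 CPM, against 9.72 to 11.5 CPM in the other 8 libraries) and of Ndufab1 (14.7 CPM, against 17.3 to 22.9 CPM). These are also the genes with the longest main transcripts among the subunits. Over all genes, the rho of deviation with length in WT 1 was 0.053, with longer transcripts slightly raised. The part of length in these 2 values was not tested.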
